A study of Mus musculus with 2 samples.

Results

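Akr1c12 (ENSMUSG00000021211), Akr1c13 (ENSMUSG00000021213) and Akr1c18 (ENSMUSG00000021214) are 3 of the 32285 genes measured in sorted fetal lung cells, and 6 further rows of the same table carry another Akr1c symbol. They were taken by symbol, and the group was drawn up with earlier results of these data known, in which Akr1c12 was among the genes that fell most in group 2 innate lymphoid cells (ILC2s) of dexamethasone-exposed fetuses. The differences of the members between treatments in ILC2-like cells are therefore given as a description with no test.

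The study asked how a synthetic glucocorticoid given to the mother changes ILC2s of the fetal lung. Wild type C57BL/6J 9-week-old pregnant mice received dexamethasone (DEX) in drinking water at 1.3 µg/ml, or water with PBS, from day 12 of gestation, and lungs were taken at E18. Lungs of all fetuses of a mother were pooled, and each pool was marked with a hashtag antibody, giving litters DEX-1 (8 fetuses), DEX-2 (9), PBS-1 (5) and PBS-2 (8). Cells sorted as alive, CD45+, lineage-negative and ST2+ were sequenced in a single 10x 5′ library. Litters are the replicates, with 2 per group, so a p-value measures only the spread between litters, and the exact permutation test of 2 against 2 cannot go below 0.333.

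Aldo-keto reductases of the Akr1c family use NADPH or NADH to interconvert ketones and alcohols on steroids, prostaglandins and other carbonyl compounds, and so can raise or lower the activity of a hormone inside the cell. Akr1c18 is best known for turning progesterone into a weakly active product in the ovary at the end of pregnancy. Akr1c12 and Akr1c13 are close relatives that oxidise or reduce a range of alcohols and ketones. ILC2s are lymphocytes without antigen receptors that release type 2 cytokines in the lung, and glucocorticoids act on them through the receptor encoded by Nr3c1.

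The members lie in a cluster of Akr1c genes on mouse chromosome 13 (build GRCm38). Akr1c18 spans 4132615 to 4150654 on the minus strand, Akr1c13 4191150 to 4205596 on the plus strand and Akr1c12 4268176 to 4279433 on the minus strand, with Akr1c19 at 4228700 to 4252843 between the latter pair. Each member has 9 exons and a coding length of 969 bases. The coding sequences of Akr1c12 and Akr1c13 were 96.2% identical, with 37 differences, against 74.6% for Akr1c12 and Akr1c18 and 79.1% for Akr1c12 and its neighbour Akr1c19. A stretch of 60 coding bases, 343 to 402 counted from the start codon, is shown because it holds 9 of the 37 differences (capitals). Differences such as these let a read be given to Akr1c12 rather than Akr1c13:
Akr1c12: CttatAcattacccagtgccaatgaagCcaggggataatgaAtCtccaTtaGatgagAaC
Akr1c13: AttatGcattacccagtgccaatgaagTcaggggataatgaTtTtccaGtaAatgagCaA
Elsewhere the copies ran without a difference for as many as 228 coding bases. Of the 90-base windows of the Akr1c12 transcript, 13.1% also occurred in Akr1c13, and in the first 500 bases, the end that a 5′ library reads, 139 of 411 windows did (33.8%). Reads inside such windows cannot be given to either copy, so the Akr1c12 and Akr1c13 values below are partial and their split is uncertain. No 90-base window of Akr1c18 occurred in another gene.

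The likeness of the copies reached into their promoters. The 300-base windows around the start sites of Akr1c12 and Akr1c13 were identical in 93.4% of alignment columns with gaps counted as differences, against 56.7% for Akr1c12 and Akr1c19. Without gap columns, 284 of 296 and 182 of 279 aligned bases were the same. The 200 bases from 250 to 51 before each start are shown, counted from the start in the RefSeq table, which lies inside the gene bounds given above, read along the gene (RefSeq, GRCm38.p6, chr13:4279450-4279649 on the minus strand for Akr1c12 and chr13:4190937-4191136 on the plus strand for Akr1c13), because both genes were lower in the DEX litters below. Capitals mark differing or unaligned bases:
Akr1c12: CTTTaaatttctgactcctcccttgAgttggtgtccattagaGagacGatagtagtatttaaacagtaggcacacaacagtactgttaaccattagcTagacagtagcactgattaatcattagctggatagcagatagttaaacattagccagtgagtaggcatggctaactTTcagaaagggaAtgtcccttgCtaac
Akr1c13: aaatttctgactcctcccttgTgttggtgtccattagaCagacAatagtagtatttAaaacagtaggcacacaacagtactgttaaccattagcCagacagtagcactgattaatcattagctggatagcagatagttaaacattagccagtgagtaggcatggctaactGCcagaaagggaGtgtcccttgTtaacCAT
The glucocorticoid receptor half-site letters AGAACA, searched on both strands, were absent from the 300-base windows of Akr1c12, Akr1c13 and Akr1c18, and were present in 19.0% of 27025 mouse promoters of that length. The GATA letters AGATAA were absent from the same 3 windows, were present in 11.4% of all promoters, and occurred 3 times in that of Akr1c19. Absence says only that these letters are not in this window.

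After filters the table gave 7268 cells with a single hashtag, 1737 to 1890 per litter, with median depths of 7458 to 8325 unique molecular identifiers (UMIs, 1 per captured transcript). Clusters were named from marker genes, with the members kept out of the clustering. The sort gate notwithstanding, 2090 cells (28.8%) were ILC2-like, and a larger class of 2811 (38.7%) carried basophil or mast cell markers and is called basophil or mast-like. Cells carrying epithelial, endothelial, mesenchymal, B cell and macrophage or monocyte markers numbered 199 to 452 per class, and 936 stayed unnamed. In the 3 ILC2-like clusters, 8 or 9 ILC2 markers, among them Gata3 and Rora, were each found in at least 25% of cells. Doublets of cells from the same litter could not be removed.

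Akr1c12 and Akr1c13 were mainly ILC2-like transcripts, and Akr1c18 was barely detected. ILC2-like cells held 21.6% of all UMIs but 599 of 646 Akr1c12 UMIs (92.7%) and 1309 of 1644 Akr1c13 UMIs (79.6%). Akr1c18 had 2 UMIs in all singlets, 1 in a basophil or mast-like cell and 1 in an unnamed cell, both of DEX-2. None was in an ILC2-like cell, where a count of 0 allows up to the level of 3 UMIs, 0.169 UMIs per 1000000 UMIs of the class. Intervals and such limits cover counting error only.

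Levels are given as CPM, the UMIs of a gene per 1000000 UMIs of the class and litter. For Akr1c13, the mean over the 4 litters was 72.6 ± 31.4 CPM (SD, n = 4) in ILC2-like cells, with a range of 42.4 to 102.9. Mesenchymal-like cells followed with 11.8 ± 9.52, then basophil or mast-like cells with 6.61 ± 1.23, endothelial-like cells with 4.99 ± 2.63, unnamed cells with 4.68 ± 0.93 and epithelial-like cells with 3.28 ± 2.56. B-like and macrophage or monocyte-like cells had 1 UMI each. The ILC2-like litters lay above every litter of every other class, whereas neighbours in the rest of that order overlapped. For Akr1c12 the ILC2-like mean was 32.6 ± 19.6 CPM, with a range of 15.1 to 57.1, and no other class passed a mean of 1.93 ± 1.74, that of endothelial-like cells. B-like cells had no Akr1c12 UMI, which allows up to 3.97 CPM, the level of 3 UMIs.

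**Figure D1:**
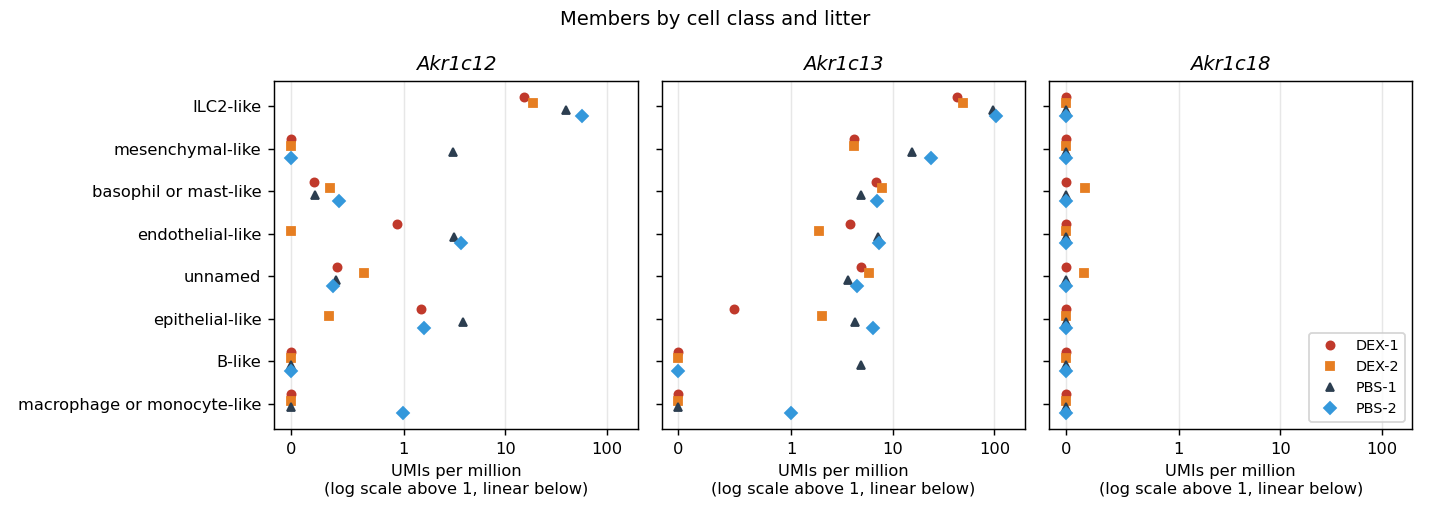
Level of each member in CPM (x axis, log scale above 1 and linear below) in each cell class (y axis), 1 point per litter. ILC2-like litters sit at 15.1 to 57.1 for Akr1c12 and 42.4 to 102.9 for Akr1c13, to the right of all other classes, and Akr1c18 is at 0 in nearly every point.

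By cell, an Akr1c13 UMI was found in 30.1% of ILC2-like cells and an Akr1c12 UMI in 16.2%. After each cell was thinned to 2000 UMIs, which left out 30 shallower ILC2-like cells, the shares were 11.7% and 6.31%. In B-like cells, which stand here for a type outside the lineage, 0.503% had an Akr1c13 UMI at a median depth of 3528 UMIs, against 7186 in ILC2-like cells, and 0 of 185 thinned B-like cells did. In macrophage or monocyte-like cells, at a median of 7342 UMIs, the share was 0.395%.

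The copies tended to be found in the same cells. Of ILC2-like cells with an Akr1c12 UMI, 65.2% also had an Akr1c13 UMI, against 23.3% of the other ILC2-like cells. With cells thinned to 2000 UMIs these shares were 34.6% and 10.2%. The direction was the same in each litter, with 46.2 to 78.1% of the former and 19.4 to 27.4% of the latter. At 2000 UMIs per cell the litters had 29.4, 11.8, 33.3 and 42.9% (DEX-1, DEX-2, PBS-1, PBS-2) against 6.70, 8.51, 13.5 and 12.5%, and in DEX-2 that rested on 2 cells with both genes. Deep cells carry more UMIs of every gene, and the 2 copies share sequence.

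In ILC2-like cells both genes were lower in the DEX litters. In what follows, values of 4 litters stand in the order DEX-1, DEX-2, PBS-1, PBS-2. Akr1c12 was at 15.1, 18.7, 39.5 and 57.1 CPM, from 72, 71, 157 and 299 UMIs. Both DEX litters lay below both PBS litters, and the PBS litters were further apart than the DEX litters. The edgeR log2 fold change, DEX minus PBS with TMM scaling, was -1.53 ± 0.20 (SE), given without a test.

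Akr1c13 was at 42.4, 48.9, 96.2 and 102.9 CPM, from 202, 186, 382 and 539 UMIs. Here too the groups did not overlap, and each group was tight. Its log2 fold change was -1.13 ± 0.11. Of all 10725 genes fitted in ILC2-like cells, 22.1% had both DEX litters below both PBS litters and 0.811% had a log2 fold change of -1 or lower. The test across all genes called 2% of them, 1.06% as lower in DEX. Since the members were chosen from this contrast, nothing is read from these shares. Akr1c18 did not pass the filter on low counts.

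The lower levels were seen both in how many cells had a UMI and in how many UMIs such a cell had. Akr1c12 was found in 10.2% and 11.4% of ILC2-like cells in the DEX litters, against 18.8% and 23.5% in the PBS litters. Cells with an Akr1c12 UMI held a mean of 1.26 and 1.37 UMIs in the DEX litters, against 1.69 and 2.18 in the PBS litters. Akr1c13 was found in 22.3% and 23.9% of DEX cells, against 34.9% and 38.3% of PBS cells, with means of 1.63 and 1.71 UMIs against 2.21 and 2.42. At 2000 UMIs per cell the Akr1c13 shares were 7.40% and 8.63% in DEX against 14.8% and 15.8% in PBS. No ILC2-like cell had more than 10 Akr1c12 UMIs, and the highest Akr1c13 count was 19, in PBS-1. Either gene was found in 27.6% and 30.04% of DEX cells and in 41.0% and 43.5% of PBS cells.

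ILC2-like cells were split again into states by their leading genes. These were a dividing state (Ube2c, Birc5; 386 cells), a replicating state (Ung, Mcm2, E2f1; 369), and states led by Cd7, Ms4a4b and Tcf7 (374), by Csf2, which encodes the cytokine GM-CSF, with the ubiquitin ligase gene Rnf128 (387), by Ramp3 and the neuropeptide gene Calca (323), and by Pla2g7 and Atp4a (218). The 10 leading genes of the Pla2g7 state also included Hdc, Gata1 and Cpa3, which mast cells and basophils are known to express. Mast cell markers were found on average in 15.1% of its cells, and basophil markers in 2.60%, against 11.8 to 17.3% and 1.72 to 5.56% in the other ILC2-like states, and their part in the levels below was not tested. A state of 33 shallow cells had no member UMI and is left out below. Akr1c12 means over the 4 litters ran from 13.4 ± 4.44 CPM in the Cd7 state to 67.3 ± 52.6 in the Pla2g7 state, with 59.3 ± 22.3 in the Csf2 state. Akr1c13 means ran from 45.9 ± 16.4 in the Cd7 state to 122.2 ± 85.7 in the Pla2g7 state. The litter ranges of neighbouring states overlapped, and the Cd7 state lay below the Csf2 state in all litters for both genes.

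In 5 of 6 states both DEX litters lay below both PBS litters, for Akr1c12 and for Akr1c13, and the exception was the Cd7 state for each gene. In the whole class 22.1% of genes had this order, and the share within each state was not computed. The states are parts of the same 4 litters and of the contrast behind the choice, so they are not separate support. In CPM the widest gap was in the Pla2g7 state. There Akr1c12 was at 23.8 and 26.4 CPM in the DEX litters, against 85.2 and 133.8 in the PBS litters. In the same state Akr1c13 was at 47.6 and 57.1, against 157.0 and 227.1. In the Cd7 state Akr1c12 was at 10.8, 15.9, 8.7 and 18.4 CPM and Akr1c13 at 33.3, 41.5, 69.9 and 38.7. That state rested on 4 to 13 Akr1c12 UMIs a litter, and the 95% Poisson intervals of its 4 litters overlapped for that gene.

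**Figure D2:**
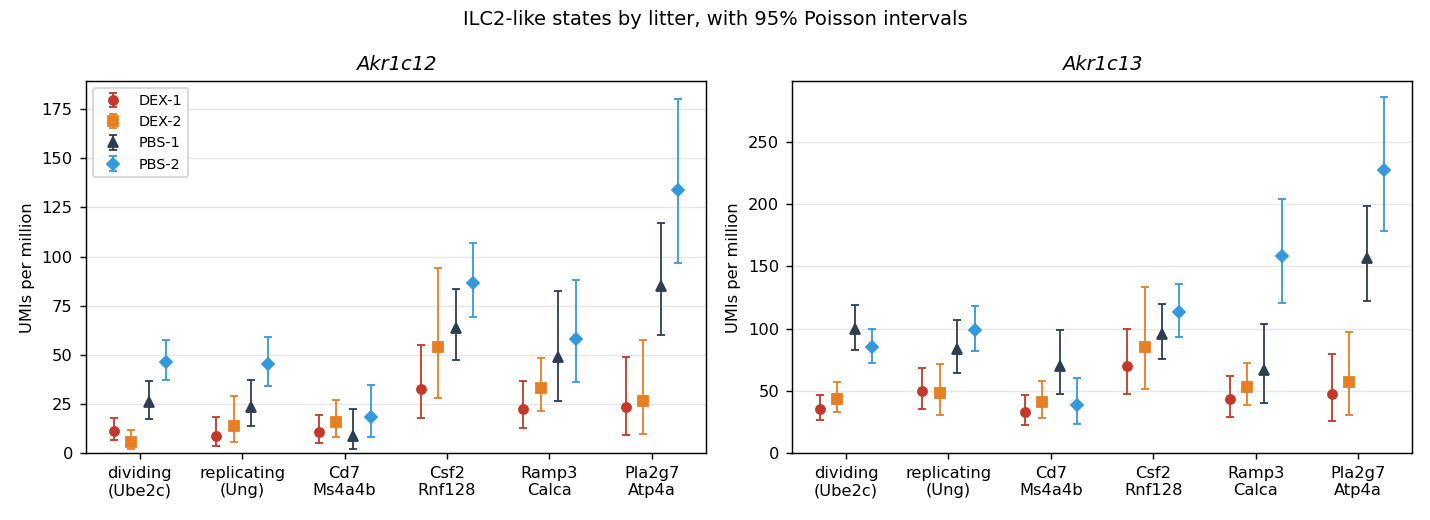
Level of Akr1c12 (left) and Akr1c13 (right) in CPM (y axis) in 6 states of ILC2-like cells (x axis), 1 point per litter with its 95% Poisson interval. Red and orange DEX points sit below dark and light blue PBS points except in the Cd7 state, and in the Pla2g7 state Akr1c12 reaches 133.8 in PBS-2 against 26.4 in DEX-2.

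The litters did not have the same mix of states. The Csf2 state had 66, 34, 135 and 152 cells, and the Ramp3 state 113, 123, 42 and 45. When every litter was given the pooled shares of states, Akr1c12 was at 17.6 and 24.2 CPM in the DEX litters and at 38.8 and 58.9 in the PBS litters. Akr1c13 was then at 46.1 and 54.1 against 90.2 and 109.3. Groups did not overlap for either gene. As a log2 ratio of group means this was -1.22 for Akr1c12 and -0.99 for Akr1c13, beside edgeR values of -1.53 and -1.13 above. The part of the state mix in the difference was not tested.

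Outside ILC2-like cells, which the choice of members did not use, Akr1c13 passed the filter on low counts in 3 classes. Only its test in basophil or mast-like cells is used, and its difference there did not pass. In epithelial-like and mesenchymal-like cells it passed the filter on low counts only through the PBS litters, where it was higher. Its fold changes in those classes are therefore not independent of that order, and they are given as a description with no test. In basophil or mast-like cells, where Akr1c13 was best counted, it was at 6.8, 7.7, 4.9 and 7.0 CPM (33, 45, 23 and 33 UMIs). The groups overlapped (17.5% of genes in this class had both DEX litters below both PBS litters), and the log2 fold change was 0.31 ± 0.28 with an adjusted p of 0.9997 (edgeR quasi-likelihood test, Benjamini-Hochberg over 10935 genes). That test called 0 genes in this class (0% of those tested), with 427 (3.9%) at an unadjusted p under 0.05 and 7 called by DESeq2. Akr1c12 had 6 UMIs in these 2811 cells and Akr1c18 had 1, both under the filter. Whether the DEX difference of Akr1c13 is another in this class than in ILC2-like cells was not tested.

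Within basophil or mast-like cells, most Akr1c13 UMIs lay in 2 states, with 51 and 59 of 134. In the state led by Ccl6 and Ccl4, which carried more basophil than mast cell markers (431 cells), it was at 17.2, 20.7, 6.1 and 20.9 CPM. In the largest state, of 964 cells led by Pde3a and Fgfr1 among others, it was at 8.5, 5.2, 8.1 and 6.4. A dividing state of 57 cells (Ube2c, Birc5) had 10 Akr1c13 UMIs, 8 of them in DEX-2, or 11.3 CPM over all litters. The state led by the mast cell receptor gene Mrgprb1, of 220 cells, had 1 Akr1c13 UMI in all.

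In epithelial-like cells Akr1c13 had 1, 6, 10 and 16 UMIs, or 0.490, 2.02, 4.27 and 6.34 CPM. Its log2 fold change was -1.85 ± 0.63, given without a test. In this class 0.0274% of 10933 genes were called and 23% had both DEX litters below both PBS litters. In mesenchymal-like cells it had 3, 3, 10 and 11 UMIs and a log2 fold change of -2.18 ± 0.62, given without a test. There edgeR called 0% of 8207 genes, with 313 (3.81%) at an unadjusted p under 0.05, and 15.9% had DEX below PBS. In endothelial-like cells it had 4, 2, 9 and 10 UMIs (3.75, 1.88, 7.08 and 7.26 CPM), too few to be fitted, with DEX below PBS as for 18.3% of genes fitted there. In the 936 unnamed cells, which were not fitted, the DEX values were the higher ones for either copy. The Poisson intervals of all litters overlapped for each copy. The share of genes with this order was not computed in these cells, so nothing is read from it. There Akr1c13 was at 4.86, 5.83, 3.61 and 4.42 CPM (24, 36, 18 and 36 UMIs) and Akr1c12 at 0.405, 0.648, 0.401 and 0.368 CPM, from 2 to 4 UMIs a litter.

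UMIs of ILC2 genes moved with these counts. Of mesenchymal-like cells with an Akr1c13 UMI, 69.2% (9 of 13) also had a UMI of Gata3, Cxcr6 or Il2ra, against 10.6% of the other mesenchymal-like cells. In epithelial-like cells the shares were 47.4% and 5.31%. Without the cells that had a UMI of those 3 genes, mesenchymal-like cells kept 4 of 27 Akr1c13 UMIs and epithelial-like cells 12 of 33, at 0, 1.40, 0.924 and 2.62 CPM, so that the groups overlapped in epithelial-like cells. Endothelial-like cells kept 13 of 25, at 1.07, 2.11, 3.23 and 6.17 CPM, with both DEX litters still below both PBS litters. With hashtags assigned by MULTIseqDemux, the mean of Akr1c13 over litters was 4.29 CPM in mesenchymal-like cells and 1.13 in epithelial-like cells, under the values above. The part of ILC2 RNA or of mixed droplets in the counts of these 2 classes was not tested. In basophil or mast-like cells the shares were 9.43% and 3.22%, and 116 of 134 Akr1c13 UMIs were in cells without a UMI of the 3 genes.

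The balance of the copies differed between classes. Akr1c12 made up 31.4% of the UMIs of the pair in ILC2-like cells (95% exact binomial interval 29.3 to 33.5%). In basophil or mast-like cells it made up 4.29% (1.59 to 9.10%), and in unnamed cells 8.80% (4.48 to 15.2%), both intervals below that of ILC2-like cells. Epithelial-like (34.0%) and endothelial-like cells (28.6%) had wide intervals that held the ILC2-like share. All 10 endothelial-like Akr1c12 UMIs, and all but 2 of the 17 epithelial-like ones, were in cells that also had a UMI of Gata3, Cxcr6 or Il2ra, and the part of ILC2 RNA in these shares was not tested. In mesenchymal-like cells the share was 6.90% (0.846 to 22.8%), from 29 UMIs. Within ILC2-like cells the litters had shares of 26.3, 27.6, 29.1 and 35.7%, and only PBS-2 stood apart from DEX-1 in its interval. The copies have transcripts of almost the same length, 1261 and 1262 bases. Their split stays uncertain, since reads in shared sequence cannot be given to either copy.

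**Figure D3:**
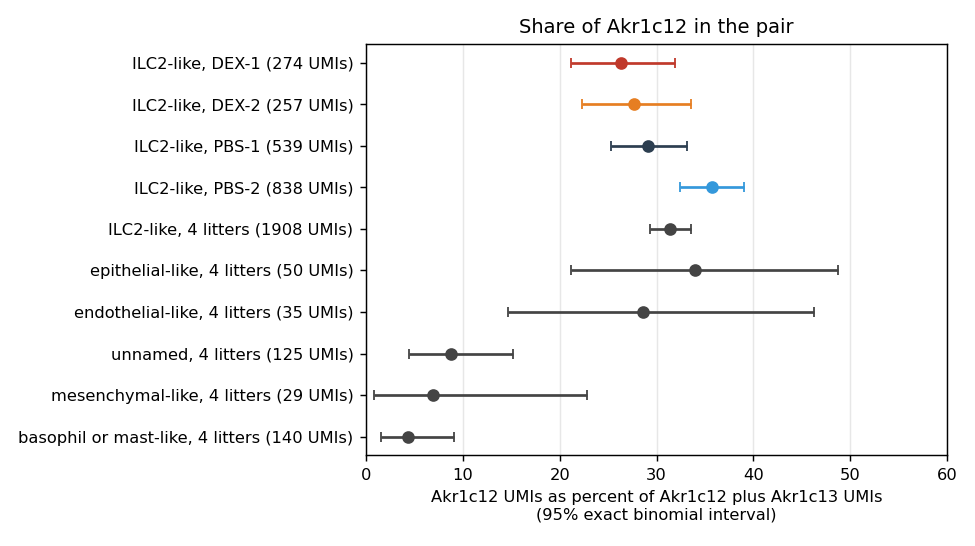
Akr1c12 UMIs as a percentage of Akr1c12 plus Akr1c13 UMIs (x axis) with 95% exact binomial intervals, for ILC2-like cells by litter and for 6 classes over the 4 litters (y axis). Basophil or mast-like cells sit at 4.29%, far to the left of ILC2-like cells at 31.4%.

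Other genes of the family followed another pattern. Akr1c14 and Akr1c19, which lie in the same cluster, had 404 and 371 UMIs in all singlets but 2 and 14 in ILC2-like cells. In epithelial-like cells they had 199 and 197 UMIs, and Akr1c14 was at 16.7, 18.9, 26.5 and 18.6 CPM. Neither passed the test there, with log2 fold changes of -0.27 and -0.18 and adjusted p of 0.933 and 0.960 (edgeR quasi-likelihood test). Akr1c6 and Akr1c20 had no UMI, and Akr1c21 and Akr1cl had 2 each.

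Of the genes of 7 lists of related function, 75 were tested in ILC2-like cells, 1 was called, and 20 had both DEX litters below both PBS litters, beside 2% and 22.1% of all genes. Among other aldo-keto reductases, 0 of 5 tested genes were called. Akr1a1, a broad aldehyde reductase, was at 240.1, 242.6, 248.0 and 252.7 CPM (log2 fold change -0.05 ± 0.07). Akr1b3, aldose reductase, was at 204.2, 205.3, 177.8 and 204.2, and Akr7a5 at 31.7 to 41.3 across litters. The median log2 fold change of the list was -0.02, against 0.00 over all genes tested.

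Of 38 enzymes of steroid synthesis and interconversion, 15 were tested in ILC2-like cells and 0 called, with a median log2 fold change of -0.03. Hsd17b10, a mitochondrial hydroxysteroid dehydrogenase, was at 121.2 to 131.9 CPM in the 4 litters, Fdx1, the electron donor of mitochondrial steroid hydroxylases, at 46.2 to 49.4, and Hsd17b12 at 43.1 to 50.2. Of 7 tested steroid receptors and membrane progestin receptors, 0 were called, with a median of -0.04. Nr3c1 had a log2 fold change of 0.19 ± 0.07 (adjusted p = 0.280, edgeR quasi-likelihood test), Pgrmc1 of -0.10 ± 0.11 and Pgrmc2 of -0.01 ± 0.16.

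Prostaglandins are substrates of some Akr1c enzymes, and 0 of 12 tested prostaglandin genes were called (median -0.01). The prostaglandin synthase gene Ptgs2 had a log2 fold change of 0.28 ± 0.08, Ptges3 of 0.10 ± 0.07 and the receptor gene Ptger4 of -0.44 ± 0.11, with adjusted p of 0.0903, 0.649 and 0.0542 (edgeR quasi-likelihood test). Of 16 tested carbonyl and aldehyde detoxification genes, 0 were called (median -0.01). Adh5 and Aldh2, which clear formaldehyde and acetaldehyde, had log2 fold changes of -0.05 ± 0.08 and -0.06 ± 0.09, and Dhrs7 of -0.28 ± 0.11. Cbr2, a carbonyl reductase gene named here after its values were seen, had the lowest log2 fold change of the 75 tested list genes, -2.20 ± 0.78, lower than that of either member (adjusted p = 0.233, edgeR quasi-likelihood test). It was at 7.35, 1.31, 40.3 and 4.77 CPM, so the groups overlapped. In epithelial-like cells Cbr2 had the highest level of the tested genes of its list. There edgeR called it lower in DEX, in a class where 0.0274% of genes were called. The part of epithelial RNA in its ILC2-like counts was not tested.

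Of 21 tested targets of the oxidative stress factor NRF2, 1 was called, Gclc, which encodes the catalytic subunit of the first enzyme of glutathione synthesis. Gclc was at 230.7, 206.6, 294.8 and 272.4 CPM, and it fell by 0.37 ± 0.08 on the log2 scale (adjusted p = 0.0338, edgeR quasi-likelihood test, against 1.06% of all genes called lower). The call was lost without DEX-1 (log2 fold change -0.43, adjusted p = 0.105) and without DEX-2 (-0.30, 0.129), fits in which the remaining DEX litter is assumed to vary like the PBS litters, and with DESeq2 (-0.36, 0.0508). With cells thinned to 2000 UMIs its log2 fold change was -0.19 (adjusted p = 0.677, edgeR), and with the cycling states left out it was -0.35 (adjusted p = 0.245, edgeR). The ferritin genes Fth1 and Ftl1 and the peroxiredoxin gene Prdx1 had log2 fold changes of 0.16 ± 0.07, 0.12 ± 0.07 and -0.02 ± 0.08, and the list had a median of 0.06. Hmox1, heme oxygenase, also named after its values were seen, had the highest log2 fold change of the list genes, 2.75 ± 0.83 (adjusted p = 0.140, edgeR quasi-likelihood test), at 34.5, 1.84, 2.27 and 3.25 CPM, high in DEX-1 alone. In basophil or mast-like cells 0 of 76 tested list genes were called by edgeR, 5 at an unadjusted p under 0.05, and DESeq2 called 1.

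**Figure D4:**
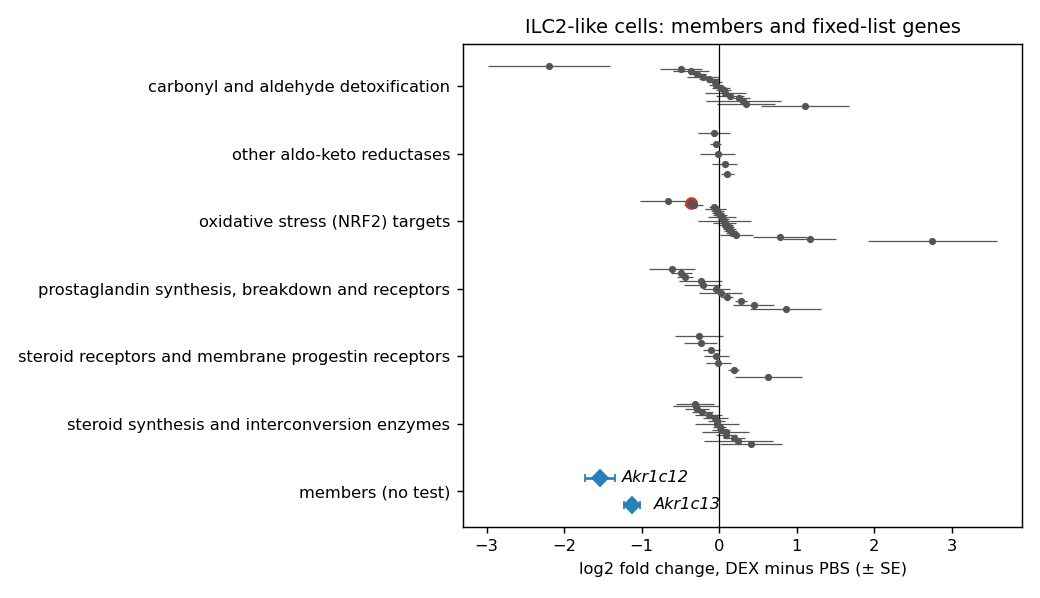
Log2 fold change, DEX minus PBS, with its SE (x axis) for each tested gene of 6 lists in ILC2-like cells (y axis; grey points), for the called gene Gclc (red) and for Akr1c12 and Akr1c13 (blue, no test). Gclc is at -0.37 and the pair at -1.53 and -1.13, while the uncalled list genes reach from -2.20 (Cbr2) to 2.75 (Hmox1).

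Genes whose levels followed the members across classes were sought over 28 sums of a class and a litter and 13003 genes, by Pearson correlation of log2(CPM + 1). These points share 1 library, and within a class their litters are alike, so the correlation describes mainly which class expresses a gene. Nearest to Akr1c12 were Trdc (r = 0.93), which encodes a T cell receptor delta constant region, Fam83a (0.93), 5830468F06Rik (0.91), 1700113H08Rik (0.89) and Gm26907 (0.89). Nearest to Akr1c13 were the lysosomal transporter gene Abcb9 (0.96), Thy1 (0.95), the CD3 chain gene Cd3g (0.92), Xlr4b (0.92) and Nlrc3 (0.92). Thy1, a surface marker of lymphocytes, was at 166.4 to 196.0 CPM in the ILC2-like litters and at most 43.0 elsewhere. Its litters did not separate by treatment, at 196.0, 166.4, 179.8 and 192.3 CPM. Abcb9 was at 94.5 and 93.3 in the DEX litters and 127.7 and 131.4 in the PBS litters, an order that 22.1% of genes had in ILC2-like cells. It was picked by a correlation that used these same litters, so nothing is read from that order.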

How the data were processed

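The authors deposited a matrix of UMI counts (10648 barcodes by 32285 genes and 4 hashtags), made with Cell Ranger 7 on mm10 per the submitters' processing notes. Read length is not given in the sources used here. Barcodes with at least 200 genes and at most 5% mitochondrial UMIs were kept (10409), and hashtags were assigned with HTODemux (Seurat 5.3.0; positive quantile 0.99), leaving 7268 singlets, 736 doublets and 2405 without a hashtag. Cells were clustered with scanpy 1.11.5 (2000 variable genes, 20 components, 15 neighbours, Leiden resolution 0.5). UMIs were summed by class and litter. DEX and PBS litters were compared with edgeR 4.0.16 (filterByExpr, TMM, quasi-likelihood test, adjusted p under 0.05 over all genes), with DESeq2 1.42.0 as an alternative; the fit was tested on simulated data. Levels are counts per 1000000 summed UMIs (CPM), while log2 fold changes use TMM scaling. Named genes are the members, list genes called in the 2 large classes, the 3 list genes with the highest level, and the 5 genes nearest to each member. Members, lists and rules were chosen with earlier results of these data known. A legend of the study gives 1 dam per group for this experiment, while its methods and the hashtags give 2, which was followed. Alternatives changed hashtag calls, filters, depth, state mix, the tool, the litters and the pairing by litter number.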

Additional observations from a re-analysis of the deposited data

Results flagged for a closer look

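Member UMIs were present in barcodes that no comparison used. The 2405 passing barcodes with no hashtag held 4 Akr1c12 UMIs (0.203 CPM, 95% Poisson interval 0.055 to 0.520) and 26 Akr1c13 UMIs (1.32 CPM, 0.863 to 1.94), where 3 UMIs would be 0.152 CPM. Single-hashtag cells held 7.85 and 20.0 CPM. Akr1c18 had 0 UMIs in the barcodes with no hashtag, which allows up to 0.152 CPM as the level of 3 UMIs. The upper end of its 95% Poisson interval was 0.187. With 2 litters per group, no test for a litter standing apart was made.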

How the results depend on the processing

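In ILC2-like cells the log2 fold changes under 16 alternatives were -1.77 to -1.22 for Akr1c12 and -1.25 to -0.99 for Akr1c13. None moved by more than the spread between litters. Among the 16 was the sum of both copies, -1.25, set beside each gene. Akr1c13 alone went no lower than -1.24. The members were chosen from this contrast, and both DEX litters lay below both PBS litters. Leaving out 1 litter thus left little room for another direction, and the kept direction is not support. The lowest and highest without 1 litter were -1.77 and -1.22, and -1.24 and -1.002. In basophil or mast-like cells Akr1c13 stayed uncalled, at 0.06 to 0.60, with the stricter filter and thinning leaving it too low to fit. In epithelial-like and mesenchymal-like cells, given without a test, its log2 fold changes were -3.27 to -0.96 and -2.50 to -1.71 where it could be fitted. MULTIseqDemux, the stricter filter and thinning left it too low to fit in both classes.

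The 215 genes called in ILC2-like cells became 120 with DESeq2, 533 with no filter, 124 with thinning, 103 (without DEX-1) to 424 (without PBS-2) with 1 litter left out (381 without PBS-1), and 431 with the litter number as a replicate block. The 1 list gene called became 0 with DESeq2, 7 with no filter, 2 with the stricter filter, 0 with thinning, 0 to 4 with 1 litter left out and 5 with the replicate block. For basophil or mast-like cells the 0 called genes became 7 with DESeq2, of which 1 was a list gene, 0 to 6 with 1 litter left out, of which 0 to 1 were list genes, and 0 with the replicate block. The cause of these shifts was not tested. The block changed no call of a member. Deviations of same-numbered litters correlated at 0.09 in ILC2-like and at -0.11 in basophil or mast-like cells, so the numbers were not taken to pair litters. The crossed pairing, added after the data were seen, called 14 genes and 1 list gene in basophil or mast-like cells. Without thinning, the shares of cells with a UMI were 16.2% (Akr1c12, ILC2-like), 30.1% (Akr1c13, ILC2-like) and 3.77% (Akr1c13, basophil or mast-like), against 6.31%, 11.7% and 1.21%.

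These values are limited by few UMIs outside ILC2-like cells and by reads in sequence that the copies share, which no setting here recovers. Adding the rows of both copies gave -1.25 in ILC2-like cells.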

Other observations

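Barcodes with 2 hashtags, left out above, held 79 Akr1c12 UMIs in 53 of 736 barcodes (4.70 CPM) and 219 Akr1c13 UMIs in 136 barcodes (13.0 CPM), at a median depth of 17163 UMIs.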
